A study of Rattus norvegicus with 11 samples.

Results

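The 9 genes described here encode the Cip/Kip inhibitors of cyclin-dependent kinases (Cdkn1a, Cdkn1b and Cdkn1c), the D-type cyclins (Ccnd1, Ccnd2 and Ccnd3), their kinase partner Cdk4, and the neuronal pair of Cdk5 and its activator Cdk5r1, in the medial prefrontal cortex of rats. All non-control probes that the array design names as 1 of these genes were taken, which gave 16 probes of the 41012 different non-control probes on the array. They are 9 of the 35581 gene names that these probes carry. The genes were chosen on heroin minus saline values of these same arrays that were already known, so that difference is given below as a description and was not tested again for them. D-type cyclins bind and activate Cdk4, and the complex phosphorylates the retinoblastoma protein, which releases E2F factors and opens the way to DNA replication. The Cip/Kip proteins p21 (Cdkn1a), p27 (Cdkn1b) and p57 (Cdkn1c) bind cyclin and kinase together and hold this step back, and in the adult brain they help to keep cells out of division. Cdk5 needs no cyclin: it is activated in neurons by p35, the product of Cdk5r1, and acts on the cytoskeleton and the synapse.

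RNA came from male rats, aged 4 months, of which 6 had self-administered heroin through a catheter and 5 were yoked controls that received saline infusions and never heroin. Both groups then had 14 days of abstinence from infusions and an extinction session, without drug, before the tissue was taken, so the comparison is between rats with and without earlier heroin that had all been through the same chambers. Each rat was hybridised to its own single-colour Agilent array. A level is given below as a multiple of the median signal of all non-control probes on the same array, and levels are compared between rats for 1 probe, never between probes.

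Array median signals ran from 42.7 to 78.3 in the heroin group and from 58.0 to 83.2 in the saline group, and 28185 to 33835 probes per array were detected. The 25555 probes detected on all 11 arrays and usable in both groups were tested. Their median heroin minus saline difference was 0.18 on the log2 scale and 78.7% of them were higher in heroin, against 0.01 and 53.2% after quantile normalization, which gives every array the same distribution. Each same-numbered heroin and saline array shared a scan (5 pairs, with heroin replicate 1 alone), and all heroin arrays lay at one position on their slides and all saline arrays at another, so position and group cannot be told apart. The tissue is mixed, and fewer cells of a type and less RNA per cell cannot be told apart in it. The neuronal markers Snap25, Stmn2, Syt1 and Tubb3 and the cortical markers Nrgn and Slc17a7 were detected on all arrays.

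The probes carry 60 bases each, and the array files place them on the rn3 build. Both Cdkn1b probes lie on the plus strand of chromosome 4, A_44_P508264 at chr4:172090371-172090430 and A_43_P11268 at chr4:172091286-172091345, with 855 bases between them. The Cdk4 probes lie on the plus strand of chromosome 7, A_44_P388782 at chr7:67038023-67038082 and A_44_P388777 at chr7:67038854-67039001. The last of these covers 148 bases of the genome, more than its own length. Because the Cdkn1b probes gave different results and the Cdk4 probes alike ones, these 4 are printed, 5′ to 3′, the Cdkn1b probes as their first 30 bases and the Cdk4 probes whole.
Cdkn1b A_43_P11268: gtgaaatggatactacacctttaaacagtg
Cdkn1b A_44_P508264: aagaataattccttgtttattagatacatc
Cdk4 A_44_P388777: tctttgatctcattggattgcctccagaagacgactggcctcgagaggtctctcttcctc
Cdk4 A_44_P388782: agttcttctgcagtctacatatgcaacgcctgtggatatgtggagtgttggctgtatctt
Of the Cdkn1b probes, A_43_P11268 held 35.0% G and C and A_44_P508264 held 30.0%, against 51.7% and 45.0% in the Cdk4 probes. All 16 member probes cite a RefSeq transcript that carries the same gene symbol today. Exon and UTR positions on rn3 were not analysed here.

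Of the 16 probes, 15 passed detection on all arrays, and these covered all 9 genes. All 15 had a higher mean in heroin than in saline rats, with a median log2 difference of 0.19 beside 0.18 over all tested probes, and 8 of the 15 lay above that overall median. After quantile normalization 7 of the 15 were higher in heroin, with a median of -0.04 beside 0.01. The direction of 8 of the 15 therefore turned with the scaling. With the study's thresholds, an unadjusted p below 0.02 and a change of at least 1.4-fold in limma's moderated test, 1 member probe was called and it was higher in heroin. In the same fit 2.72% of all tested probes were called (694 probes) and 1.79% were called as higher in heroin (457 probes). After quantile normalization no member was called, where 1.79% of all tested probes were called. The smallest Benjamini-Hochberg adjusted p over all tested probes in limma was 0.263, and 4723 probes had an unadjusted p below 0.05, 1 member probe among them.

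**Figure D1:**
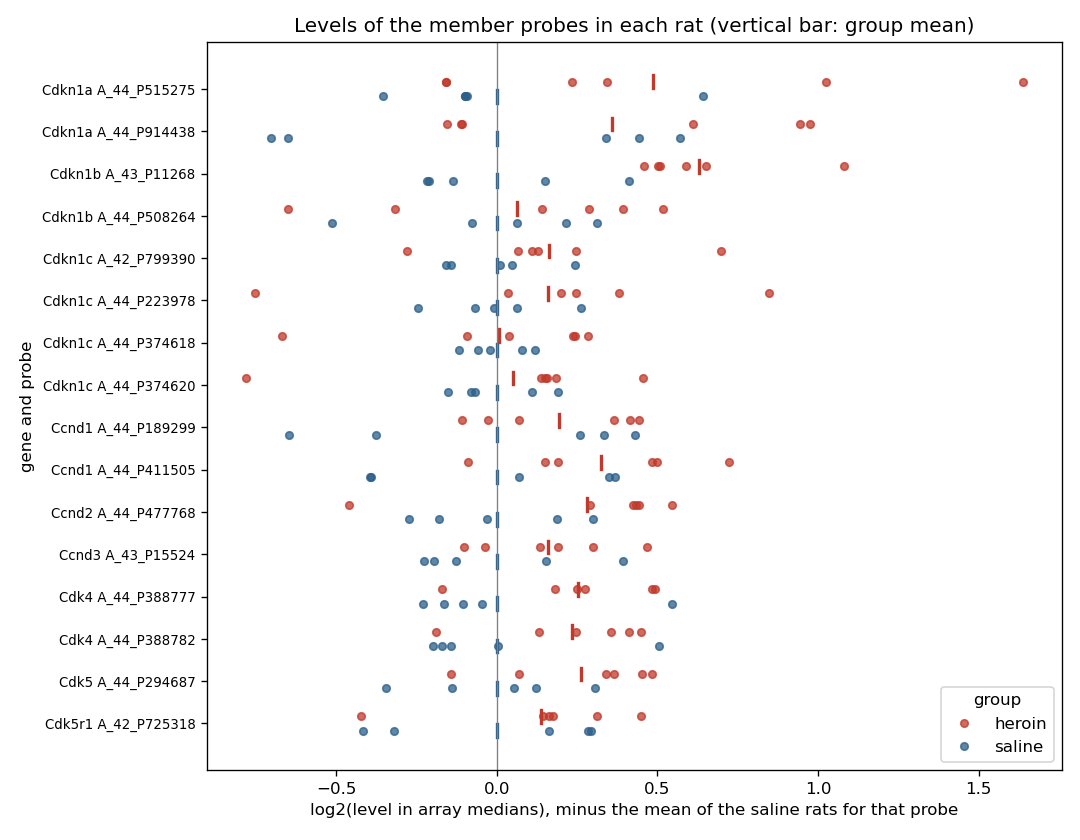
Level of each of the 16 member probes in each rat, as log2 of the level in array medians minus the mean of the saline rats for that probe (horizontal axis), with 1 line per probe, heroin rats in red, saline rats in blue and a vertical bar at each group mean. Only on the Cdkn1b line A_43_P11268 do all 6 heroin rats lie to the right of all 5 saline rats. The share of all tested probes with such a separation is not given here.

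The inhibitor Cdkn1b (p27), which binds cyclin E and cyclin D complexes and marks cells that have left the cycle, was the member called. The paper also measured Cdkn1b by RT-qPCR, and places it among the genes whose array difference RT-qPCR did not bear out. On probe A_43_P11268 the heroin rats, replicates 1 to 6, read 12.7, 11.9, 13.2, 12, 11.6 and 17.8 array medians. The saline rats, replicates 2 to 6, read 7.28, 7.67, 9.36, 11.2 and 7.25. All 6 heroin rats were above every saline rat, but the lowest heroin rat (11.6) was close to the highest saline rat (11.2). How many of all tested probes separate the groups in this way is not given here, and the gene was chosen on this difference. Group means were 13.2 ± 2.34 (SD, n = 6) and 8.55 ± 1.72 (SD, n = 5), a log2 difference of 0.63 ± 0.16 (SE) or 1.549-fold. Relative to the median of all tested probes the difference was 0.45. After quantile normalization it was 0.39 ± 0.11 (SE), below the 0.485 that a 1.4-fold change requires. Scaling each array to its 75th percentile gave 0.41, which also lies below that line. Leaving out 1 rat at a time moved the difference between 0.54 (without heroin replicate 6) and 0.73 (without saline replicate 5).

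Cdkn1b was read by 2 probes, and the other one did not separate the groups. On A_44_P508264 the heroin rats, in the same order, read 11.6, 9.7, 12.6, 10.7, 5.6 and 7.07 array medians. The saline rats read 6.16, 10.2, 10.9, 9.19 and 8.33, within the range of the heroin rats. The log2 difference was 0.06 ± 0.21 (SE), and -0.17 ± 0.18 (SE) after quantile normalization. It went from -0.07 without saline replicate 2 to 0.20 without heroin replicate 5. Heroin replicate 6 was the highest of all rats on A_43_P11268 and the second lowest heroin rat on A_44_P508264. Heroin replicate 5 was the lowest heroin rat on both probes, and the lowest of all rats on A_44_P508264. The probes still differed without either rat. Their differences were 0.67 and 0.20 without heroin replicate 5, and 0.54 and 0.14 without heroin replicate 6. With both probes averaged, the Cdkn1b difference was 0.35.

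**Figure D2:**
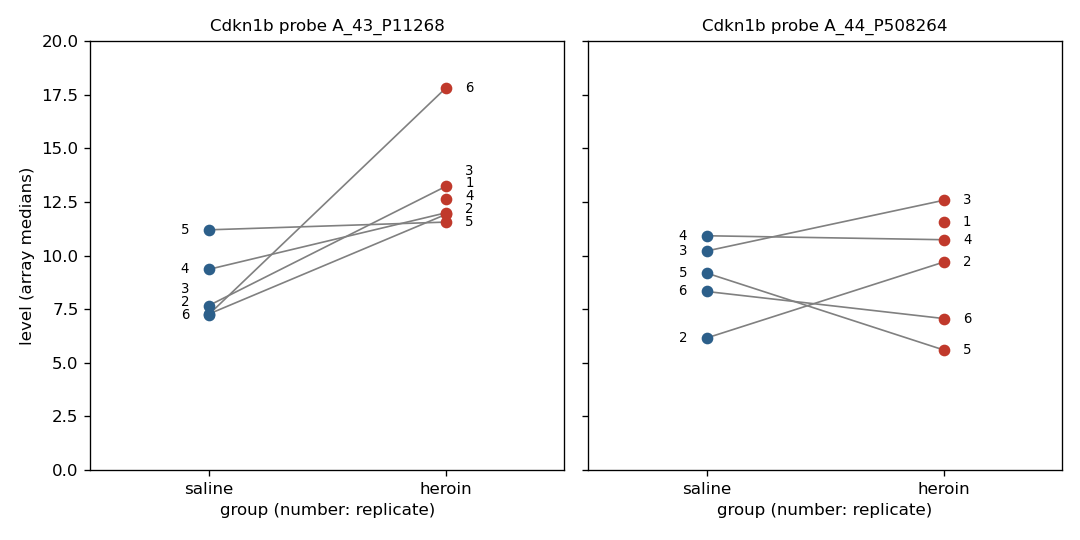
Level in array medians (vertical axis) of the Cdkn1b probes A_43_P11268 (left) and A_44_P508264 (right) in each saline and heroin rat, labelled with the replicate number (labels are spread apart where points crowd), with a grey line joining the arrays of 1 scan. On the left all 5 lines rise, from nearly level for number 5 to the steep line of number 6, and on the right 2 of 5 rise.

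Within scans, heroin was above saline on A_43_P11268 in 5 of 5. These are the same arrays that gave the difference on which the gene was chosen. Of all tested probes, 75.2%, 73.7%, 68.1%, 35.8% and 65.1% were higher in heroin in the scans of numbers 2 to 6. The share higher in all 5 is not given here. The log2 differences of A_43_P11268 were 0.71, 0.79, 0.36, 0.05 and 1.30 for numbers 2 to 6, with a mean of 0.64. After quantile normalization all 5 were again positive with a mean of 0.41. On A_44_P508264 they were positive in 2 of 5, with a mean of -0.00.

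A_43_P11268 is spotted 10 times on each array, which separates spot noise from differences between rats together with their arrays. The median SD among its spots of 1 array was 0.071 on the log2 scale, none of its spots was marked as an outlier, and the SD between rats of a group was 0.25, 3.54 times as large. Its signal was at least 26.5 times the detection limit and that of A_44_P508264 at least 22.4 times, and no member probe was saturated. The level of A_43_P11268, with group means subtracted, had a correlation of -0.59 with the median signal of the array over the 11 rats, and that of A_44_P508264 one of 0.02. Over the other tested member probes this correlation ran from -0.70 (Ccnd1 A_44_P411505) to 0.78 (Cdk5). A level is itself a multiple of that median signal. Heroin replicate 6, the highest rat on A_43_P11268, had the dimmest array (42.7). The part of array brightness in the difference was not tested.

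Whether probes of 1 gene follow each other from rat to rat does not depend on the group difference that chose the genes, so it was tested. Pearson's r was taken over the 11 rats on quantile-normalized log2 values with group means subtracted, and its two-sided p came from an exact permutation of the rats within groups (86400 orders), adjusted by Benjamini-Hochberg over the 9 same-gene pairs. The Cdk4 probes followed each other, with r = 0.94 and an exact adjusted p = 0.00239, Spearman's rho = 0.93 and an exact adjusted p = 0.0051, and r = 0.83 without the 2 rats farthest from the median. So did the Ccnd1 probes, with r = 0.85 (exact adjusted p = 0.00239), rho = 0.81 (exact adjusted p = 0.00906) and r = 0.82 without the 2 farthest rats. For the 6 pairs among the 4 Cdkn1c probes r ran from 0.74 to 0.93, the exact adjusted p was at most 0.0399, rho ran from 0.73 to 0.85 with an exact adjusted p of at most 0.027, and r was 0.62 to 0.86 without the 2 farthest rats of each pair. On the array-median scale the Cdk4 and Ccnd1 pairs had r = 0.97 and r = 0.91 and were below an adjusted p of 0.05 again (exact permutation, adjusted p = 0.0025 and 0.00295). Of the Cdkn1c pairs, 2 of 6 were no longer below it for r on that scale (exact permutation, adjusted p = 0.107 and 0.0591), both with probe A_44_P374618, and the adjusted exact p for rho reached 0.197. Without heroin replicates 5 and 6, the farthest rats, r of the 3 pairs with that probe fell to 0.11, 0.28 and 0.16, so on that scale these pairs rested on those rats. As a description, the 96 pairs of probes from different member genes had a median r of 0.07, and of 0.35 on the array-median scale. Single pairs of different genes were as close on quantile-normalized values, such as Cdkn1c A_44_P374620 with Ccnd2 (r = 0.87), so a high r is not particular to probes of 1 gene.

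The Cdkn1b pair gave r = -0.53 (exact permutation, raw and adjusted p = 0.14) and rho = -0.45 (exact permutation, raw and adjusted p = 0.193), and r = -0.32 without heroin replicate 6 and saline replicate 5, the farthest. On the array-median scale its r was 0.09 (exact permutation, p = 0.817), and 0.66 without the same 2 rats, so that even the sign of the relation rested on the scaling and on those rats. As a description, over the 3078 same-gene pairs of 2047 genes with a symbol and at least 2 tested probes, the median r was 0.36 on quantile-normalized values, with quartiles of -0.05 and 0.68, and 4.87% of pairs lay at or below the Cdkn1b pair. On the array-median scale the median was 0.49 and 23.4% lay at or below it.

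**Figure D3:**
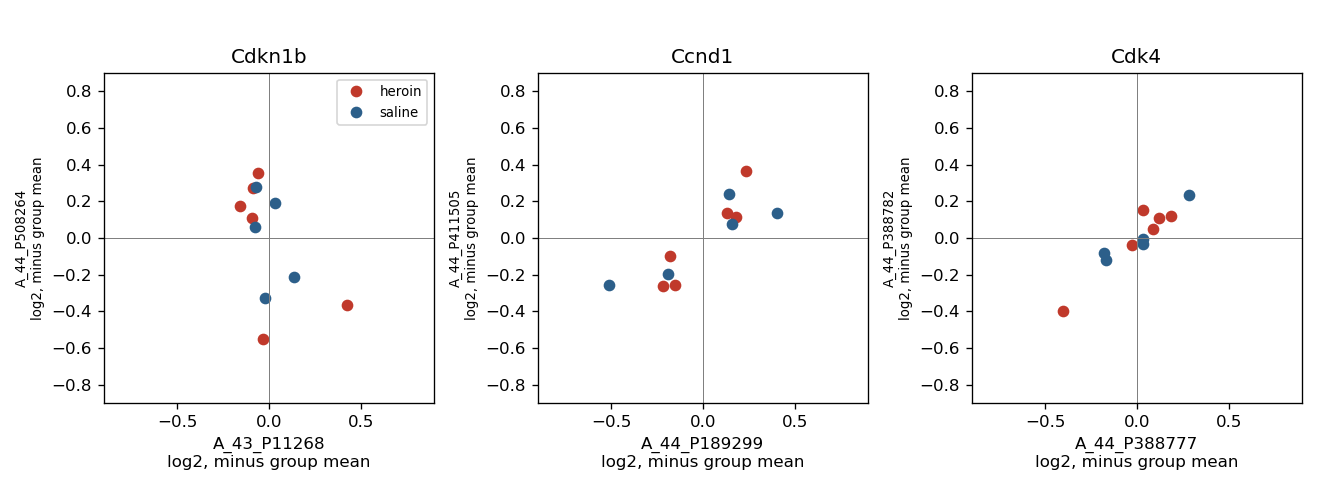
Quantile-normalized log2 value minus the group mean in each rat for the probe pairs of Cdkn1b, Ccnd1 and Cdk4, with 1 probe on each axis, heroin rats in red and saline rats in blue. Points of Ccnd1 (r = 0.85) and Cdk4 (r = 0.94) run along the diagonal and those of Cdkn1b (r = -0.53) do not.

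Cdkn1a (p21), the inhibitor that p53 and stress hormones induce, varied most between rats. On probe A_44_P914438 (chr20:7386823-7386882, plus strand, rn3) the heroin rats read 9.23, 7.16, 9.03, 4.35, 4.36 and 4.21 array medians, with replicates 1 to 3 high and 4 to 6 low. The saline rats read 2.99, 2.89, 5.94, 6.98 and 6.38, with replicates 2 and 3 low and 4 to 6 high. The groups overlapped over most of their range and the log2 difference was 0.36 ± 0.29 (SE), the member value nearest to the called one and outside the thresholds. It was 0.18 without saline replicate 3 and 0.20 without saline replicate 2, below the 0.34 and 0.23 of the Ccnd1 probe A_44_P411505 in the same fits, and 0.15 after quantile normalization. Its SD between rats of a group was 0.58, larger than that of 96.3% of all tested probes and 7.65 times the median SD of 0.076 among its 10 spots on an array. Within scans, the difference was 1.26 and 1.65 for numbers 2 and 3, and -0.45, -0.68 and -0.60 for numbers 4 to 6.

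The second Cdkn1a probe, A_44_P515275, was detected on 1 heroin array and on no saline array. Its median signal was 0.36 times the detection limit, so it gave no usable level for p21. It lies 1030 bases before the other on rn3.

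Cdkn1c (p57), an imprinted inhibitor of the same family, was read by 4 probes that overlapped between groups on every one. Log2 differences were 0.16 ± 0.16 (SE) for A_42_P799390, 0.16 ± 0.22 for A_44_P223978, 0.01 ± 0.16 for A_44_P374618 and 0.05 ± 0.19 for A_44_P374620. After quantile normalization all 4 were below 0, from -0.20 to -0.07. Without heroin replicate 6 the 4 differences were 0.05, 0.02, -0.05 and -0.03 in the same order. Their spread lay in the heroin group: heroin replicate 5 was the lowest of the 11 rats and heroin replicate 6 the highest on all 4. On A_44_P223978 these rats read 8.47 and 25.7 array medians while the other heroin rats read 14.6 to 18.6. The saline rats read 12.03, 14.2, 13.6, 17.1 and 14.9 there.

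Among the D-type cyclins, which link growth signals to Cdk4, no probe separated the groups. Ccnd1 (cyclin D1) gave a log2 difference of 0.19 ± 0.20 (SE) on A_44_P189299 and 0.33 ± 0.19 on A_44_P411505, and -0.05 and 0.08 after quantile normalization. The first of these was 0.03 without saline replicate 6, 0.10 without saline replicate 2 and 0.30 without saline replicate 5. On the second probe heroin rats read 10.7 to 18.7 array medians, with a median of 14.4, and saline rats 8.64, 11.9, 14.6, 14.5 and 8.64. Of the heroin rats, 3 were above all saline rats on it, and the others lay among them. The Ccnd1 difference in the scan of number 6 was 1.09 on one probe and 1.12 on the other, and in that of number 5 it was -0.54 and -0.44.

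Ccnd2 (cyclin D2) was the D-type cyclin with the clearest stray rat. The heroin rats read 28.5, 25.7, 28.3, 28.1, 15.2 and 30.6 array medians on A_44_P477768, and the saline rats 17.3, 20.5, 23.8, 25.8 and 18.5. Of the heroin rats, 4 lay above every saline rat, replicate 2 (25.7) lay just below the highest of them and replicate 5 lay below them all. The log2 difference was 0.28 ± 0.18 (SE) and rose to 0.43 without heroin replicate 5, and it was 0.03 after quantile normalization. Ccnd3 (cyclin D3) gave 0.16 ± 0.15 (SE) and -0.06 after quantile normalization, with heroin rats at 4.42 to 6.56 array medians (median 5.32) and saline rats at 4.14, 4.35, 5.28, 6.24 and 4.06. The Ccnd3 groups overlapped over almost their whole range.

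Cdk4, the kinase that these cyclins activate, gave log2 differences of 0.25 ± 0.16 (SE) on A_44_P388777 and 0.23 ± 0.16 on A_44_P388782, and 0.03 and 0.01 after quantile normalization. On A_44_P388782 the heroin rats read, in order, 8.5, 8.19, 8.73, 7.59, 7.0 and 5.61 array medians. The saline rats read 5.57, 5.8, 6.41, 9.08 and 5.69 there. Saline replicate 5 was the highest of all 11 rats on both Cdk4 probes, and without it the differences were 0.39 and 0.36. In the same saline rat, markers of striatal neurons were high: Rgs9 stood at 13.3 array medians against 3.03 to 4.91 in the other saline rats and 3.6 to 5.48 in the heroin rats. The Adora2a probe A_44_P1034950 stood at 5.92 there, against 1.75 to 2.31 in the other saline rats. The part of this marker signal in the Cdk4 level was not tested. A probe that the array names BM986254 shares at least 20 bases with Cdk4 on the opposite strand, and it read 0.664 ± 0.208 (SD, n = 6) in heroin and 0.695 ± 0.186 (SD, n = 5) in saline rats.

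The neuronal kinase Cdk5 gave a log2 difference of 0.26 ± 0.15 (SE) on A_44_P294687, and 0.06 after quantile normalization. The heroin rats read 4.36, 4.74, 4.64, 3.55, 4.29 and 3.07 array medians, and the saline rats 3.69, 2.67, 3.07, 4.18 and 3.52. Of the heroin rats, 4 were above all saline rats, and replicates 4 and 6 lay among the saline rats. Its SD among the 10 spots of an array was 0.071 in the median and that between rats 0.25. Cdk5r1 (p35) gave 0.14 ± 0.18 (SE) and -0.04 after quantile normalization, with heroin rats at 1.85 to 3.39 (median 2.79) and saline rats at 3.03, 2.77, 3.02, 1.86 and 1.98. The Cdk5r1 saline rats fell into 3 high and 2 low readings, and heroin replicate 5 was as low as the lowest of them. Without saline replicate 5 the difference was 0.03.

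**Figure D4:**
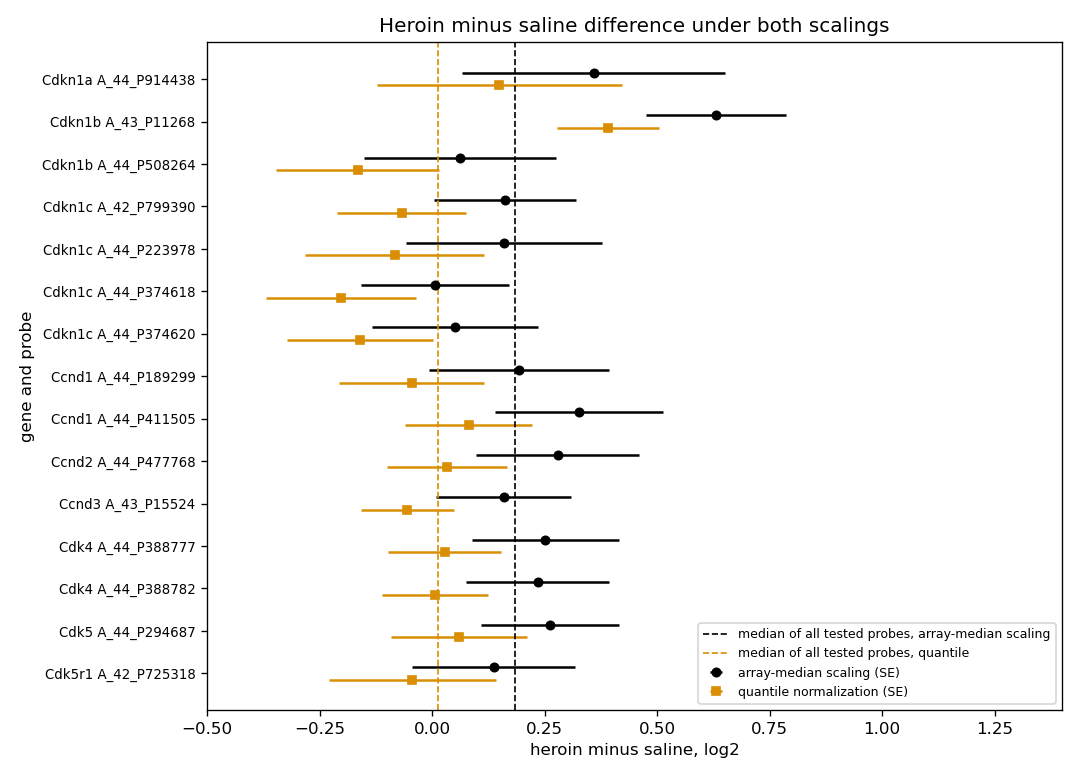
Heroin minus saline difference (horizontal axis, log2) with its standard error for the 15 tested member probes, in black after array-median scaling and in orange after quantile normalization, with dashed lines at the median of all tested probes on each scale (0.18 and 0.01). Cdkn1b A_43_P11268 lies farthest to the right on both scales, at 0.63 and 0.39, and the other members shift toward or across 0 under quantile normalization.

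The members did not move alike in every scan. Heroin was above saline for 14, 13, 12, 2 and 10 of the 15 tested member probes in the scans of numbers 2 to 6, where 75.2%, 73.7%, 68.1%, 35.8% and 65.1% of all tested probes were higher. In the scan of number 5 the exceptions were Cdkn1b A_43_P11268 and Cdk5, both near 0 at 0.05 and 0.04, and the median of the members was -0.52 against -0.11 over all tested probes. Heroin replicate 5 was the lowest heroin rat on 10 of the 15 tested probes and heroin replicate 6 on the other 5. After quantile normalization 3 of 15 members were higher in the heroin rat of that scan.

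**Figure D5:**
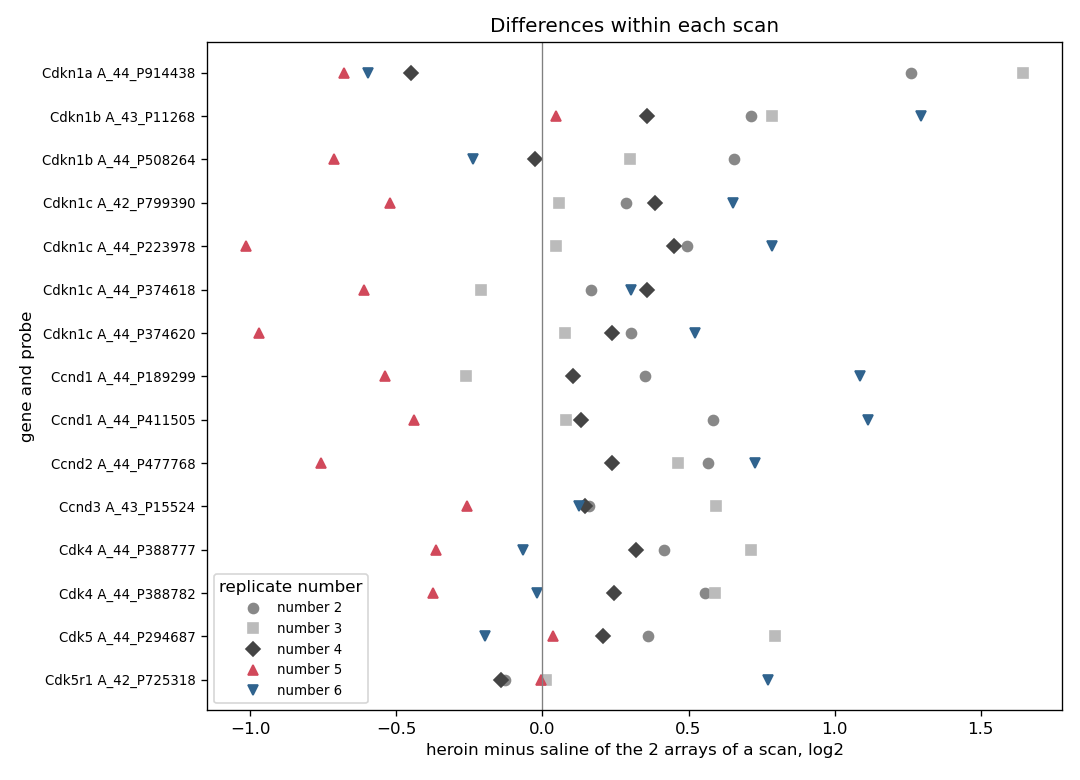
Heroin minus saline difference (horizontal axis, log2) of the arrays that shared a scan, for each tested member probe, with 1 symbol per replicate number. The triangles of number 5 lie left of 0 for 13 of 15 probes, and on the Cdkn1b line A_43_P11268 all 5 symbols lie right of 0.

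Other genes of these pathways were read from lists of 107 genes, of which 74 had a tested probe (99 probes in all). None of these probes was called as higher in heroin and 2 were called as lower, with a median log2 difference of 0.19 beside 0.18 over all tested probes (0.01 beside 0.01 after quantile normalization). The lower probes were those of Foxo3a_predicted, the array's name for a forkhead factor known to activate Cdkn1b transcription, and of Top2a, a topoisomerase of dividing cells. The Foxo3a_predicted probe read 0.493 to 0.927 array medians in heroin (median 0.666) and 0.645 to 1.28 in saline rats (median 1.14), overlapping in part. Its log2 difference was -0.64 ± 0.21 (SE; limma adjusted p = 0.263), and it was -0.63 and still called after quantile normalization. It was not called without saline replicate 2 or without saline replicate 3, and with normexp background correction it was -0.31 and not called, nor was it called by the methods' unequal-variance test. Top2a gave -0.50 ± 0.18 (SE; limma adjusted p = 0.263), was not called after quantile normalization, and was called in 4 of the 11 fits that left out 1 rat, those without heroin replicate 2 or 5 or saline replicate 4 or 6. Both signals were low, at 3.15 and 3.24 times the detection limit.

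No other probe of the lists was called. Of the p27 turnover and transcription genes, 9 probes were tested, and beside Foxo3a_predicted the largest difference was that of Akt1, a kinase that phosphorylates p27 and the forkhead factors, at 0.30 ± 0.13 (SE). The median of this list was 0.19. Among 11 tested probes of other cell cycle cyclins, kinases and inhibitors (median 0.12) the largest differences were 0.36 ± 0.16 for Ccna1 and -0.32 ± 0.14 for Ccna2, both cyclins of the A type. Among 6 probes of the Rb and E2F list (median 0.02), they were 0.30 ± 0.16 for Rb1 and 0.24 ± 0.16 for 1 of the 2 Rbl2 probes, the other giving -0.07 ± 0.13. Cdk6, the other kinase of D-type cyclins, was not detected on any array.

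Of 16 tested proliferation probes (median 0.18), the second largest difference after Top2a was that of Mcm3_predicted A_44_P760780 at -0.47 ± 0.21. The 26 probes of Cdk5 regulators and substrates had a median of 0.16, with the largest differences at -0.56 ± 0.23 for a Cdk5rap2 probe, whose other 2 probes gave 0.04 and -0.16, and 0.44 ± 0.18 for a probe of Dpysl2, a Cdk5 substrate in axon growth. For p53 and its targets, the list that holds known partners of Cdkn1a, 12 probes had a median of 0.18, with -0.69 ± 0.32 for a Ccng1 probe, where the other gave 0.31 ± 0.17, and 0.46 ± 0.36 for Btg2. The 19 probes of other Cdks and of cyclins of transcription had the highest median of the lists, 0.31, with 0.48 ± 0.20 for Ccnc and 0.45 ± 0.18 for 1 of the 2 tested Pctk2 probes, while the other gave -0.08 ± 0.30. After quantile normalization the median of this list was 0.06.

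The probes whose rat-to-rat pattern was most like that of Cdkn1b A_43_P11268, over 11 rats with group means subtracted and among 25251 probes, were those of Eif3s10 (r = 0.97), Ppp4r1 (r = 0.96), Akap1 (r = 0.96), Tnip2 (r = 0.95) and Cox8a (r = 0.94). These r values are the highest picked from many probes on quantile-normalized values and have no p. They rested in part on heroin replicate 6: without it r was 0.79, 0.94, 0.70, 0.66 and 0.59 in the same order. None of these probes carried a heroin difference as large as that of Cdkn1b, with log2 differences of 0.23 to 0.43 beside its 0.63.

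No probe of the cell type marker lists was called. Medians were 0.16 over 13 neuronal probes, 0.05 over 15 oligodendrocyte probes, 0.17 over 5 probes of oligodendrocyte precursors, 0.19 over 9 astrocyte, 0.18 over 8 microglial and 0.05 over 12 endothelial and pericyte probes. They were 0.20 over 3 cortical and 0.11 over 2 blood probes, and below 0 over 7 striatal probes (-0.06) and 3 probes of ependyma and choroid plexus (-0.15). Summed levels of the oligodendrocyte list ran from 442 to 1140 in heroin and from 377 to 1170 in saline rats, and those of the endothelial list from 143 to 221 and from 120 to 179. The precursor list ran from 105 to 175 and from 94.6 to 145, and the microglial list from 158 to 314 and from 166 to 253. The ranges overlapped for each of these lists, and the part of cell composition in the Cdkn1b difference was not tested.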

How the data were processed

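RNA from the medial prefrontal cortex of 11 rats was measured on single-colour Agilent arrays, 1 array per rat. The authors deposited, for each of 45018 spots per array, signal intensity values from Feature Extraction version 9.5.1.1 with background subtracted, and outlier and detection flags, and also a table of ratio values relative to the control group for 23670 probes. Intensities below 5 were set to 5, log2 values were averaged over the spots of a probe without marked spots, and the 50th percentile of non-control probes was set to 1 on every array. Probes detected in at least 0.5 of their spots on every array were tested with limma 3.58.1 in R 4.3.3 (lmFit and eBayes, no covariate), after tests on simulated data. Groups came from the sample titles. The number of arrays limits precision. The members and gene lists were chosen with earlier results of these data known. Array names with the suffix _predicted were matched to listed genes after the files were seen. All probes of the members were named; of other lists, called probes and the 2 largest changes; and the 5 probes most like Cdkn1b A_43_P11268. Alternatives were other scalings, normexp, filters, tests, blocks and leaving out each rat. P-values of the fits set a difference against the spread between these rats, which also holds differences between their arrays. The methods give n = 6 per group, and a sixth saline array was not analysed here.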

Additional observations from a re-analysis of the deposited data

Results flagged for a closer look

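In 7 of 32 checks of 1 rat against its group (16 probes, both groups), the gap between an extreme rat and its nearest neighbour took up an unusually large share of the group's range, by Dixon's 95% criterion on the log2 scale. Chance flags about 1 check in 20, and probes of 1 gene and of 1 rat are not independent. Heroin replicate 5 was the lowest heroin rat for Ccnd2 (15.2 array medians, next 25.7, gap share 0.746), for Cdkn1c A_44_P374620 (2.48, next 4.68, gap share 0.742) and for Cdk5r1 (1.85, next 2.74, gap share 0.647). Heroin replicate 6 was the highest for Cdkn1b A_43_P11268 (17.8, next 13.2, gap share 0.689). Saline replicate 5 was the highest for both Cdk4 probes, at 8.12 against 5.39 on A_44_P388777 (gap share 0.762) and at 9.08 against 6.41 on A_44_P388782 (gap share 0.712). Saline replicate 6 was the highest on the Cdkn1a probe A_44_P515275 (0.144, next 0.0866, gap share 0.736), which was not detected on any saline array.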

How the results depend on the processing

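The member count of 1 became 0 with 75th percentile scaling, with quantile normalization, with scaling to the median tested probe and with quantile normalization plus the replicate block, and 2 with array weights, which added Cdkn1a A_44_P914438. It was 1 in every fit that left out 1 rat (range 1 to 1). The count over all tested probes, 694, was 457 with quantile normalization, 126 with normexp, 1560 without a detection filter, 1067 with detection in 1 group, 308 with the methods' unequal-variance test, 2488 with array weights and 410 with quantile normalization plus the replicate block, and ran from 343 (without saline replicate 2) to 2352 (without saline replicate 5). The split of 457 higher and 237 lower became 218 and 239 with quantile normalization, 33 and 746 with the 75th percentile and 42 and 634 with the median tested probe. The 2 pathway calls became 4 with the 75th percentile, with no detection filter, with detection in 1 group and with the median tested probe. Their count was 1 with quantile normalization, with eBayes trend and robust options, and with the replicate block. Using the scan as a block, which pairs the same arrays as the replicate number, also gave 1. The count was 0 with normexp and with the methods' test, and 9 with array weights. Leaving out 1 rat gave 1 to 6 (6 without saline replicate 5), and quantile normalization plus the replicate block gave 2. Same-numbered rats deviated with correlations of -0.24 to 0.38. So few pairs cannot show whether equal numbers also mark yoked rats, and the numbers are used here as a shared scan. The replicate block gave 806 calls over all probes and 0.64 for Cdkn1b A_43_P11268, still called. Averaging the Cdkn1b probes gave 0.35. The called values of Cdkn1b A_43_P11268, Foxo3a_predicted and Top2a kept their signs under every alternative, and the causes were not tested. Scaling to the median tested probe and the combined fit were chosen after seeing the data. Signal close to background limits the values of Foxo3a_predicted and Top2a.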
